A study of Harpegnathos saltator with 12 samples.

Results

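Antennae of adult *Harpegnathos saltator*, the Indian jumping ant, were compared between animals carrying a single mutant copy of *orco* and wild-type (WT) animals. *Orco* encodes the co-receptor that assembles with each tuning odorant receptor (OR) into an odor-gated ion channel in olfactory receptor neurons (ORNs). The *orco* mutation was made with CRISPR/Cas9. The comparison was defined by the genotype labels, and it took the 3 heterozygote libraries and the 2 WT libraries, 5 of the 12 bulk RNA-seq libraries in the series. The other 7 came from homozygous mutants. They helped to estimate the spread between libraries and the sequencing batch difference, and their values are given beside some genes for reference.

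Libraries are called WT1, WT2, Het1, Het2 and Het3 after their replicate numbers. WT2 and Het1 were sequenced in batch 1, and WT1, Het2 and Het3 in batch 2. Each library is labelled as antenna, the series describes the ants as adult, and no treatment is given. The labels do not give the age of the animals, their colony, or the number of ants behind a library, so genotype cannot be told apart from age, colony or rearing. The question was what differs in the antenna when 1 of the 2 copies of the co-receptor gene is mutant. The labels do not say whether replicates came from separate groups of ants, and the p-values then measure only the spread between these libraries.

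The antenna of an ant is a chitinous tube of cuticle laid down by the epidermis. It is packed with sensilla, the hair- or plate-like sense organs in which neurons and their support cells sit in a lymph rich in odorant binding proteins. After an insect sheds its pupal case, its new cuticle is still thickened, cross-linked and darkened under the control of hormones. Chitin is assembled and modified by synthases, deacetylases and chitinases, and tanning uses catecholamines made from tyrosine.

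Gene-assigned counts were 14170829 in WT1, 4111828 in WT2 and between 6605209 and 11684876 in the heterozygotes. WT1 stood apart from the other 4 libraries. Between WT1 and WT2, 32.5% of the 10740 tested genes differed by more than 2-fold, against 7.36% to 16% between pairs of heterozygote libraries and 13.7% between WT2 and Het1, which have different genotypes. The difference between the WT libraries followed gene span, the distance from the start to the end of a gene with its introns. The genes were split by span into 5 groups of equal size. In the shortest group, with a median span of 1.55 kb, WT1 lay above WT2 by a median of 0.9 on the log2 scale, and in the longest group, with a median span of 37.7 kb, the median was -0.97. Heterozygotes compared with WT1 within batch 2 gave medians from -0.44 in the shortest to 0.71 in the longest group, whereas Het1 compared with WT2 within batch 1 gave medians between 0.01 and 0.05 in all 5 groups. Most of the gene lists are therefore given below with and without WT1. Each paragraph on called genes states which of its named genes lost their call when 1 of the 5 libraries was left out. WT1 and WT2 also differ in batch and depth, and the part of gene span in the genotype difference was not tested. Levels are given in CPM, counts per 1000000 gene-assigned counts after TMM scaling of the libraries.

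**Figure D1:**
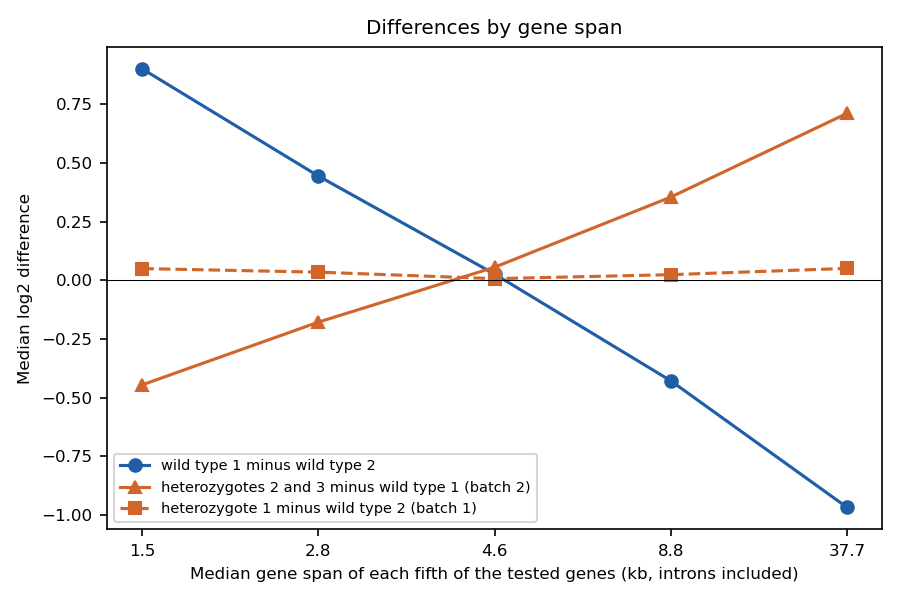
Median log2 difference between libraries (vertical axis) for the tested genes split into 5 groups by gene span (horizontal axis, median span in kb). The line for WT1 minus WT2 falls from 0.9 to -0.97, the batch 2 heterozygotes minus WT1 rise from -0.44 to 0.71, and Het1 minus WT2 stays near 0.

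Many genes differed with 1 mutant copy. Of the 10740 genes tested with edgeR's quasi-likelihood test, 1917 (17.8%) were called at an adjusted p below 0.05. The heterozygotes were higher for 1043 genes (9.71%) and lower for 874 (8.14%). These shares followed gene span. In the group of shortest genes 4% were called higher and 14.2% lower, and in the group of longest genes 18.3% and 3.25%. Large differences were more often increases: 331 genes were higher and 140 lower by more than 4-fold, and 117 were higher and 29 lower by more than 16-fold. All 3 heterozygote libraries lay above both WT libraries for 828 of the 1043 higher genes, and below both for 588 of the 874 lower genes. Over all genes tested, called or not, the heterozygotes lay entirely above WT for 14% and entirely below for 11.7%. The difference had the same sign in the 2 batches for 1914 of the 1917 called genes, although both batches entered the fit that called them. The homozygote median lay above both WT libraries for 838 of the 1043 higher genes and below both for 71. For the 874 lower genes it lay below both for 594 and above both for 7. The homozygotes entered the same fit, and their position was not counted over all genes. They were also set against the same 2 WT libraries that the calls used. A departure of either WT library moves both comparisons the same way, so these counts are not independent support for the calls.

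The number of called genes depended on the WT libraries. Leaving out WT1 reduced it to 457 (264 higher, 2.46% of genes, and 193 lower, 1.8%), of which 373 were also called with WT1, and leaving out WT2 raised it to 3903. With the 5 libraries fitted alone, 382 genes were called. A set of 105 higher (0.978%) and 59 lower genes (0.549%) was called under every one of the 14 alternative settings, and the genes below are described with that in view. Of all genes, 2.33% were higher and 1.23% lower with the 5 libraries alone, 13.3% and 11.8% with DESeq2, 10.3% and 8.35% with a mean count of at least 50, and 3.94% and 2.77% without the batch term. Batch 2 alone gave 19.7% and 13.6%, the replicate number as a block 5.65% and 2.41%, and leaving out WT2 21.2% and 15.2%. Among protein-coding genes 942 of 9487 were higher and 761 lower, and among long noncoding RNAs 45 of 425 were higher and 50 lower.

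**Figure D2:**
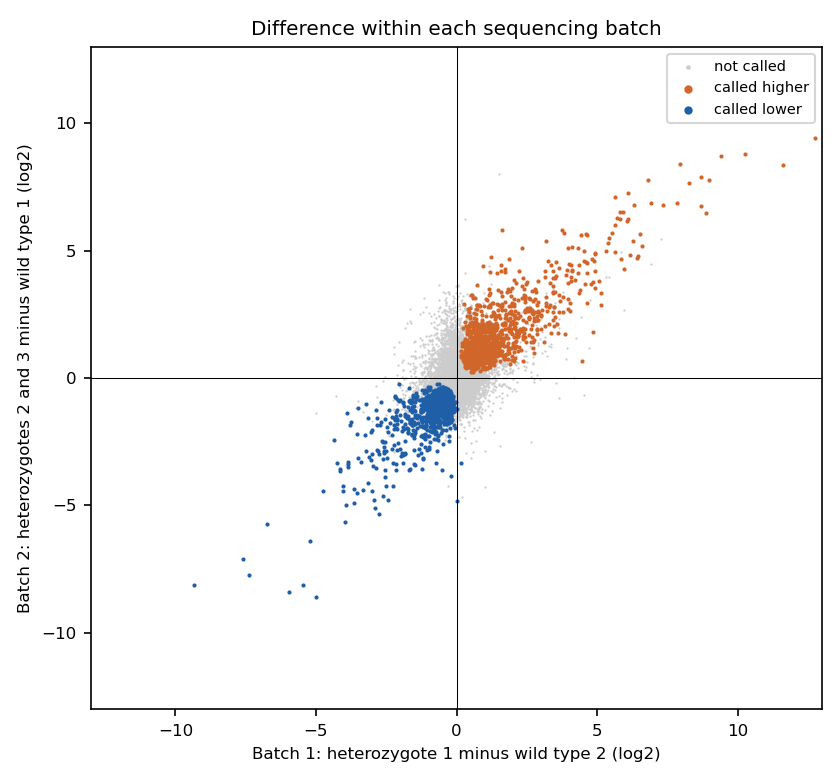
Each point is 1 of the 10740 tested genes. The horizontal axis gives its log2 difference within batch 1 (Het1 minus WT2) and the vertical axis within batch 2 (mean of Het2 and Het3 minus WT1), computed on CPM with 0.5 added. Called genes lie in the upper right or the lower left quadrant, with 3 exceptions among 1917.

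**Figure D3:**
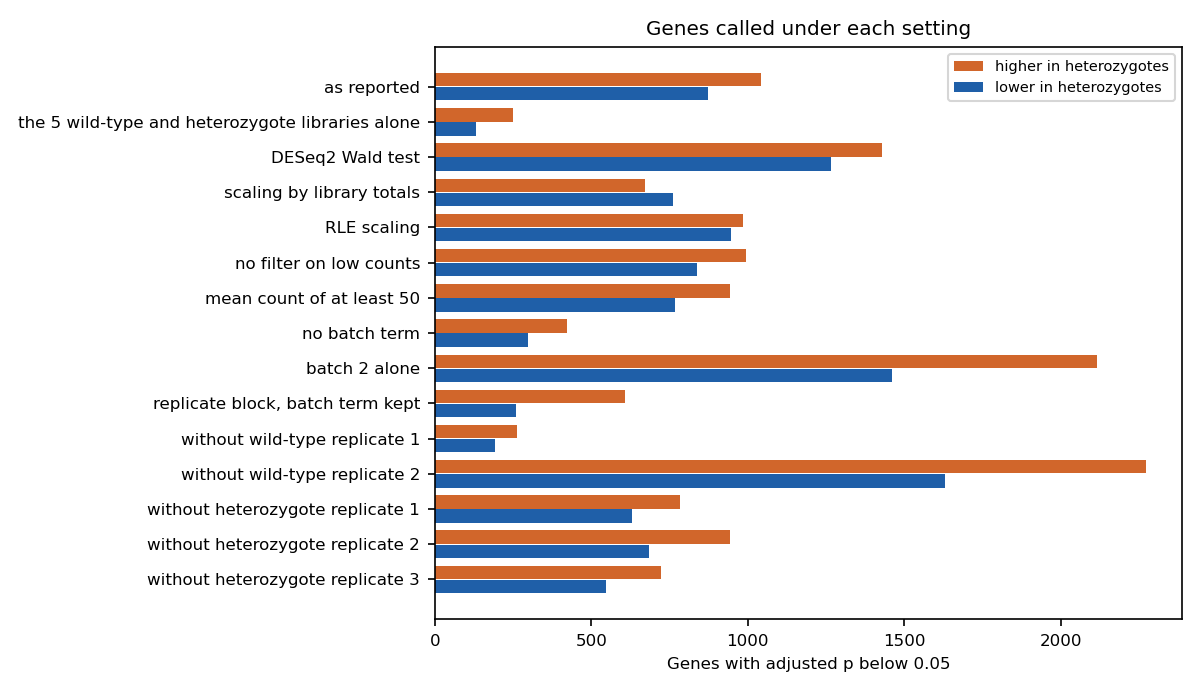
Number of genes called higher or lower in heterozygotes (horizontal axis) under the reported fit and 14 alternatives (vertical axis). The counts as reported are 1043 and 874, leaving out WT1 gives 264 and 193, and leaving out WT2 gives 2273 and 1630.

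The mutated gene itself and the marker genes of antennal cells were examined first. *Orco* stood at 2276 and 2768 CPM in WT1 and WT2 and at 2552, 1669 and 1729 CPM in Het1, Het2 and Het3, and the groups overlapped (log2 fold change -0.34, SE 0.89, adjusted p = 0.821). Its difference was -0.12 in batch 1 and -0.42 in batch 2. Homozygotes ran from 13.6 to 157 CPM for *orco*, and that range enters its standard error. The neuronal marker *nSyb*, a synaptic vesicle protein, stood at 706 and 792 CPM in WT1 and WT2 and at 983, 917 and 842 CPM in Het1, Het2 and Het3 (log2 fold change 0.35, SE 0.18, adjusted p = 0.21). Of the other neuronal markers, *Syt1*, a calcium sensor of synaptic vesicles, rose (0.64, adjusted p = 0.0285), as did *onecut* (LOC105183587, 1.31, adjusted p = 0.04097), and *fne* (LOC105190174) was at 0.15, adjusted p = 0.717. The groups overlapped for *Syt1* and *onecut*, and 0 of the 4 neuronal markers were called with the 5 libraries alone. The glial marker *repo* stood at 116 and 118 CPM in WT1 and WT2 and at 114, 105 and 134 CPM in Het1, Het2 and Het3 (log2 fold change -0.01, SE 0.16, adjusted p = 0.974). None of the 4 support cell markers was called, and their summed level was 7414 CPM in WT1, 4668 CPM in WT2 and between 3291 and 4569 CPM in heterozygotes. *Grh*, a transcription factor of epithelia, stood at 5.29 and 62.6 CPM in WT1 and WT2 and at 16.97, 27.2 and 18.3 CPM in Het1, Het2 and Het3, so that the 2 WT libraries differed from each other more than either did from the heterozygotes. *Rh50*, an ammonia transporter that marks ammonia-sensing neurons, rose (1.09, adjusted p = 0.0265), and LOC105188598, which the study used as the mechanosensory marker *nompC*, fell by 1.23 on the log2 scale (adjusted p = 0.00474). RefSeq gives the symbol *nompC* to a different gene, LOC105188586, which was at 0.43 (adjusted p = 0.471). In bulk tissue, fewer cells of a type and less RNA per cell cannot be told apart. Without WT1 the test no longer called *Syt1* (0.58), LOC105183587 (0.52), *Rh50* (1.39) and LOC105188598 (-1.07), with the log2 fold change in that fit in parentheses. Calls were also lost for *Syt1* without Het2 (0.56) and Het3 (0.62), LOC105183587 without Het2 (1.06) and Het3 (1.34) and *Rh50* without WT2 (0.87), Het1 (0.86) and Het3 (0.9).

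Several genes that modify or order chitin were higher in the heterozygotes, whereas the chitin synthase was not called. Of the 9 tested genes of a chitin synthesis and remodelling list, 6 rose and 0 fell, a share of 66.7% against 9.71% of all genes, and the median log2 fold change was 3.32 beside 0.03 over all genes tested. *Verm*, a chitin deacetylase, stood at 3.18 and 4.997 CPM in WT1 and WT2 and at 375, 297 and 262 CPM in Het1, Het2 and Het3 (log2 fold change 6.41, SE 0.74, adjusted p = 3.77e-04). The 3 heterozygote libraries were close together and far above both WT libraries, and *verm* was called in all 14 alternatives. *Cht7*, a chitinase, stood at 2.399 and 3.04 CPM in WT1 and WT2 and at 237, 209.9 and 205 CPM in Het1, Het2 and Het3 (log2 fold change 6.39, SE 1.05, adjusted p = 0.00281). The deacetylase *Cda5* stood at 1.55 and 6.95 CPM in WT1 and WT2 and at 184, 103 and 99.7 CPM in Het1, Het2 and Het3 (log2 fold change 5.4, SE 1.15, adjusted p = 0.0101). *Rtv*, needed in the fly for ordered chitin, *Cda4* and *serp*, a further pair of deacetylases, rose by 4.41, 3.32 and 2.57 on the log2 scale. The chitin synthase *kkv* stood at 3.39 and 8.47 CPM in WT1 and WT2 and at 72.2, 19.3 and 18.6 CPM in Het1, Het2 and Het3, above WT in every heterozygote library, but Het1 was several times higher than the other heterozygotes and the test did not call it (log2 fold change 2.77, adjusted p = 0.0911). The remaining members, *mmy*, which makes the sugar precursor of chitin, and *Idgf4*, a chitinase-like growth factor, had log2 fold changes of 0.07 and -0.41 (adjusted p = 0.7399 and 0.432). The list's summed level was 1657 CPM in WT1, 573 CPM in WT2 and between 1586 and 1824 CPM in heterozygotes, so the groups overlapped. The list's median was 3.17 within batch 1 and 3.19 within batch 2. Without WT1 it was 3.53, though only 1 member was then still called. When WT1 was left out, the call was lost for *Cht7* (6.46), *Cda5* (4.87), *rtv* (3 or fewer counts left in a group, no fold), *Cda4* (3.53) and *serp* (2.23).

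Structural cuticle proteins changed in both directions. Of 17 tested, 6 rose (35.3%, against 9.71% of all genes) and 2 fell (11.8%, against 8.14%), with a median of 2.21 (1.9 within batch 1 and 1.82 within batch 2). *CPR6*, a protein with the chitin-binding RR domain, stood at 9.03 and 12.8 CPM in WT1 and WT2 and at 196, 148 and 164 CPM in Het1, Het2 and Het3 (log2 fold change 4.03, SE 0.49, adjusted p = 4.79e-04), and *CPR28* at 92.3 and 70.6 CPM in WT1 and WT2 and at 453, 402 and 845 CPM in Het1, Het2 and Het3 (log2 fold change 2.73, SE 0.39, adjusted p = 0.00141). Both were called in every alternative. *CPR27* rose by 5.71, *snsl* by 3.05, *Cpap3-d* by 2.21 and *CPR14* by 1.86 (adjusted p = 0.00469, 0.02204, 0.0392 and 0.0129). The members with the steepest values, *Cpr97Ea* and *Gasp*, were not called (adjusted p = 0.0735 and 0.0634). *Gasp*, a chitin-binding protein of the fly trachea, stood at 0.0706 and 0.217 CPM in WT1 and WT2 and at 30.04, 10.7 and 6.59 CPM in Het1, Het2 and Het3, and the homozygotes ran from 0.321 to 68.3 CPM. The lower members were *CPR3*, at 6.56 and 6.52 CPM in WT1 and WT2 and at 1.71, 1.66 and 1.51 CPM in Het1, Het2 and Het3 (log2 fold change -1.95, SE 0.49, adjusted p = 0.0207), and *Cpr92F*, at 6.56 and 6.52 CPM in WT1 and WT2 and at 0.934, 2.19 and 1.67 CPM in Het1, Het2 and Het3 (log2 fold change -2.15, SE 0.48, adjusted p = 0.0121). All heterozygotes lay below WT for both genes. Their WT counts were the same, 93 in WT1 and 30 in WT2, although they are separate genes with different heterozygote counts. Without WT1, 2 members were called higher and 0 lower, with a median of 2.19. Leaving out WT1 ended the call of *CPR27* (5.47), *snsl* (3.76), *Cpap3-d* (2.08), *CPR14* (2.26), *CPR3* (-1.59) and *Cpr92F* (-2.77). There was also no call for *snsl* without WT2 (2.65) and Het1 (2.96), *Cpap3-d* without WT2 (2.33), Het1 (2.38), Het2 (2.29) and Het3 (2.03), *CPR3* without Het1 (-1.82) and Het3 (-1.95) and *Cpr92F* without Het1 (-1.92).

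Some genes of cuticle tanning were higher as well. Of 9 tested tanning and pigment genes 4 rose (44.4%, against 9.71% of all genes) and 0 fell (median 1.16, and 0.37 within batch 1 and 1.7 within batch 2). *Ple*, the tyrosine hydroxylase that begins catecholamine synthesis, stood at 394 and 135 CPM in WT1 and WT2 and at 2101, 5594 and 4878 CPM in Het1, Het2 and Het3 (log2 fold change 3.86, SE 0.41, adjusted p = 2.66e-04). *Black*, which makes the β-alanine used in tanning, stood at 32.03 and 8.47 CPM in WT1 and WT2 and at 184, 361 and 291 CPM in Het1, Het2 and Het3 (log2 fold change 3.74, SE 0.45, adjusted p = 4.62e-04), and *yellow-b*, of the yellow family of cuticle and pigment proteins, at 25.4 and 35.4 CPM in WT1 and WT2 and at 316, 406 and 408 CPM in Het1, Het2 and Het3 (log2 fold change 3.65, SE 0.31, adjusted p = 6.81e-05). All 3 genes had separate groups of libraries and were called in every alternative, including without WT1. *PPO*, prophenoloxidase, rose by 0.96 (adjusted p = 0.0151), and *Ddc*, dopa decarboxylase, was at 1.16 (adjusted p = 0.0607). *Ebony* (*e*), which joins β-alanine to dopamine, stood at 22.01 and 9.13 CPM in WT1 and WT2 and at 4.98, 302 and 17.2 CPM in Het1, Het2 and Het3, with Het2 alone far from the rest (log2 fold change 2.9, SE 1.7, adjusted p = 0.258). The call was lost without WT1 for *PPO* (0.89). Still called without WT1, but with a fold over 1.5 times different, was *black* (4.77). Calls were also lost for *PPO* without Het1 (0.89).

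**Figure D4:**
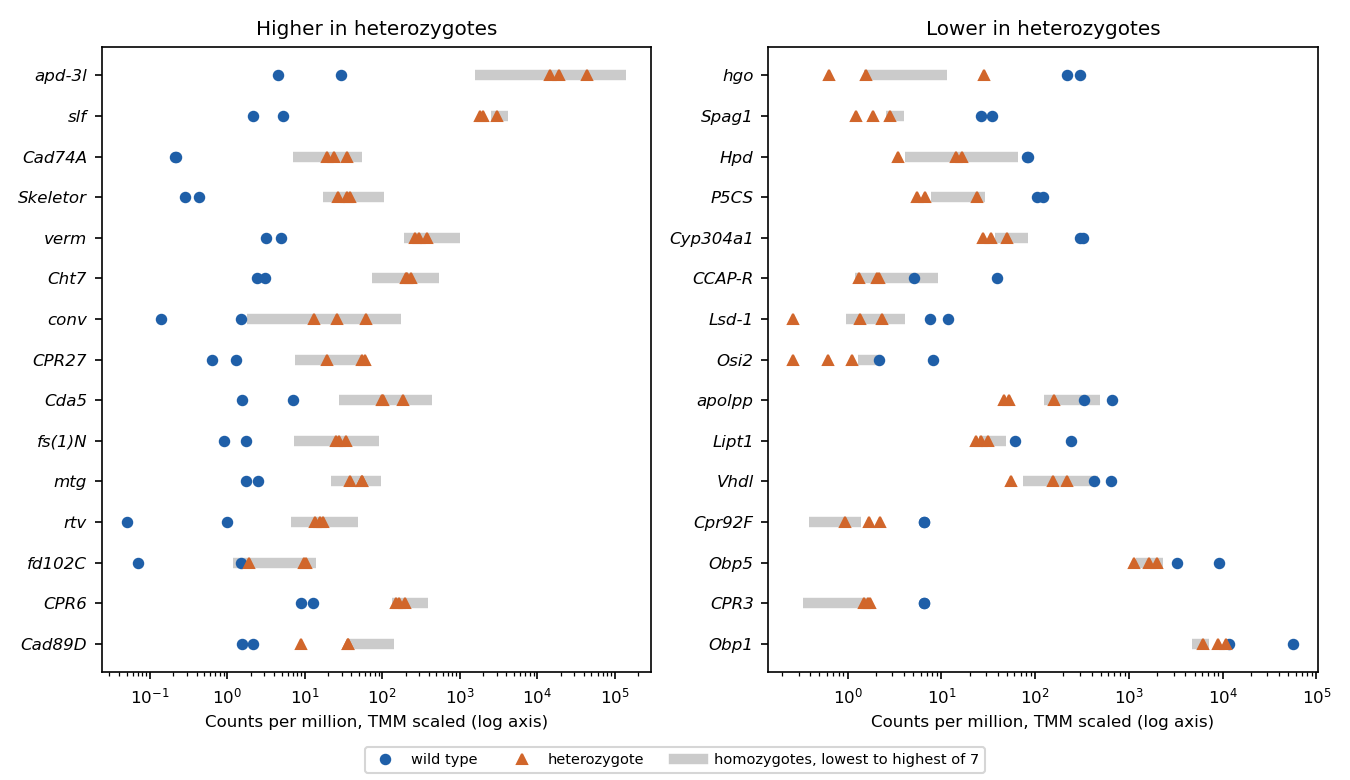
Level of each gene in every library (horizontal axis, TMM-scaled CPM on a log axis, with values under 0.05 drawn at 0.05) for the 15 named genes with the largest increase (left) and the largest decrease (right) whose libraries did not overlap. Circles are the 2 WT libraries, triangles the 3 heterozygotes and grey bars the range of the 7 homozygotes. *Slf* lies between 1812 and 3040.3 CPM in heterozygotes and at 5.29 and 2.17 CPM in WT.

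The steepest increases with a gene name included further cuticle genes. *Slf* (schlaff), required in the fly for a firmly joined cuticle, stood at 5.29 and 2.17 CPM in WT1 and WT2 and at 1812, 1997 and 3040.3 CPM in Het1, Het2 and Het3 (log2 fold change 9.15, SE 0.49, adjusted p = 4.94e-06), and the homozygotes ran from 2558 to 4227 CPM. It was called in all 14 alternatives. *Apd-3l*, an apidermin, a family of cuticle proteins described in the honeybee, stood at 29.4 and 4.56 CPM in WT1 and WT2 and at 43530.1, 14700.3 and 18806 CPM in Het1, Het2 and Het3 (log2 fold change 10.2, SE 2.34, adjusted p = 0.0142). In Het1 this single gene took 4.23% of gene-assigned counts. Het1 was the highest heterozygote library for *apd-3l*, and the homozygotes ranged widely, from 1585 to 139078 CPM, which enters the standard error. The largest fold changes without a gene name were LOC105189844, at 11.3 and 1.304 CPM in WT1 and WT2 and at 22181, 6355 and 7749 CPM in Het1, Het2 and Het3 (log2 fold change 10.39, SE 2.56, adjusted p = 0.0188), and LOC112588745, at 6.56 and 0.869 CPM in WT1 and WT2 and at 9414, 5649 and 4262 CPM in Het1, Het2 and Het3 (log2 fold change 10.37, SE 2.37, adjusted p = 0.0139). LOC105189844 lies next to LOC105189843 in the RefSeq gene order, and that neighbour rose by 9.54 (adjusted p = 0.0368). Het1 was again the highest of the 5 libraries for LOC105189844 and LOC112588745, whereas Het3 was the highest for *slf*. With WT1 left out, no call was made for *apd-3l* (13.33), LOC105189844 (14.08), LOC112588745 (13.89) and LOC105189843 (11.69). The call held but the value moved by over 1.5 times without WT1 for *slf* (9.81). The test also lost LOC105189843 without WT2 (8.55), Het1 (9.25) and Het3 (9.37).

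Genes of several kinds made up the rest of the largest named increases. The cadherins *Cad74A* and *Cad89D*, which join cells, rose by 6.81 and 3.94. *Cad74A* stood at 0.212 and 0.217 CPM in WT1 and WT2 and at 35.3, 19.5 and 23.7 CPM in Het1, Het2 and Het3, and its WT level rests on 4 counts. *Skeletor* rose by 6.64, with WT values resting on 6 counts, and *mtg* (mind the gap), a secreted matrix protein of the fly synapse, by 4.45. *Conv* (convoluted), needed in the fly for tracheal tubes of normal length, stood at 0.141 and 1.52 CPM in WT1 and WT2 and at 61.5, 26.3 and 12.9 CPM in Het1, Het2 and Het3 (log2 fold change 6.04, SE 1.78, adjusted p = 0.0386). *Fs(1)N*, an eggshell gene in the fly, rose by 4.6, and the forkhead gene *fd102C* by 4.16, with Het3 at 1.91 CPM close to WT2 at 1.52 CPM. In all, 10 of the called genes had 0 counts in both WT libraries. Increases called in every alternative included genes outside the lists, chosen after their values were seen. The gene *nompA*, whose product ties sensory dendrites to the cuticle in the fly, stood at 5.64 and 13.7 CPM in WT1 and WT2 and at 71.4, 54.6 and 105 CPM in Het1, Het2 and Het3 (log2 fold change 3.13, SE 0.39, adjusted p = 5.46e-04). The gap junction innexin *ogre* rose by 2.75 and *Wat* by 3.76, and LOC105190163 stood at 8.54 and 6.74 CPM in WT1 and WT2 and at 815, 2252 and 1712 CPM in Het1, Het2 and Het3 (log2 fold change 7.49, SE 0.4, adjusted p = 4.94e-06). Without WT1 the test no longer called *Cad74A* (3 or fewer counts left in a group, no fold), *Skeletor* (3 or fewer counts left in a group, no fold), *mtg* (4.54), *conv* (5.57), *fs(1)N* (4.15) and *fd102C* (3.22). Still called without WT1, but with a fold over 1.5 times different, was *nompA* (2.44). There was also no call for *conv* without WT2, Het1 (6.35), Het2 (5.69) and Het3 (6.21) and *fd102C* without Het2 (3.17).

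In a list of 15 tested hemocyte and fat body genes, 3 rose (20%, against 9.71% of all genes) and 2 fell (13.3%, against 8.14%). *SPARC*, a collagen-binding protein of the basement membrane, stood at 149 and 155 CPM in WT1 and WT2 and at 839, 999 and 911 CPM in Het1, Het2 and Het3 (log2 fold change 2.58, SE 0.17, adjusted p = 1.58e-05). Replicates agreed within a narrow range in each group, and the gene was called in every alternative. *Col4a1*, a chain of type IV collagen, stood at 21.7 and 86.7 CPM in WT1 and WT2 and at 359, 202 and 505 CPM in Het1, Het2 and Het3 (log2 fold change 2.91, SE 0.55, adjusted p = 0.00575), and *Tsf2*, a transferrin, rose by 0.62 (adjusted p = 0.0162). *Apolpp*, the precursor of the main lipid-carrying protein of insect blood, stood at 333 and 652 CPM in WT1 and WT2 and at 46.4, 52.5 and 159 CPM in Het1, Het2 and Het3 (log2 fold change -2.75, SE 0.75, adjusted p = 0.0285), and *Vhdl*, a further blood lipoprotein, at 419.8 and 643 CPM in WT1 and WT2 and at 55.6, 221 and 155 CPM in Het1, Het2 and Het3 (log2 fold change -2.29, SE 0.71, adjusted p = 0.04601). The homozygotes ran from 125 to 489 CPM and from 74.1 to 468 CPM, overlapping both other groups. *Lsd-1*, a perilipin that coats lipid droplets, stood at 11.9 and 7.605 CPM in WT1 and WT2 and at 2.33, 0.263 and 1.35 CPM in Het1, Het2 and Het3 (log2 fold change -3.03, SE 0.66, adjusted p = 0.0115). Among lipid and hydrocarbon synthesis genes, 2 of 14 rose (14.3%), both of them fatty acid elongases: *bond* (2.24, adjusted p = 0.0181) and *sit* (3.07, adjusted p = 0.0108). When WT1 was left out, the call was lost for *Col4a1* (1.94), *Tsf2* (0.53), *apolpp* (-3.65), *Vhdl* (-3.19), *Lsd-1* (-1.86), *bond* (1.6) and *sit* (2.08). Calls were also lost for *apolpp* without WT2 (-1.73), Het1 (-2.27) and Het2 (-2.51) and *Vhdl* without WT2 (-1.3), Het1 (-1.71), Het2 (-2.56) and Het3 (-2.28).

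Genes of steroid hormone signalling were among those that rose. Of 23 tested hormone and nuclear receptor genes 9 rose and 0 fell, 39.1% against 9.71% of all genes, with a median of 0.87 (0.57 within batch 1 and 0.82 within batch 2). The list had a median span of 25.6 kb, and 18.3% of the group of longest genes were called higher. *Cyp18a1*, the enzyme that inactivates ecdysteroids, stood at 5.93 and 5.87 CPM in WT1 and WT2 and at 47.6, 43.8 and 30.9 CPM in Het1, Het2 and Het3 (log2 fold change 2.82, SE 0.68, adjusted p = 0.0174). *Nvd*, which acts at the first step of ecdysteroid synthesis, stood at 5.93 and 6.74 CPM in WT1 and WT2 and at 14.5, 15.2 and 16.5 CPM in Het1, Het2 and Het3 (log2 fold change 1.32, SE 0.19, adjusted p = 0.001596), and *Hr4*, an ecdysone-induced nuclear receptor, at 7.06 and 13.7 CPM in WT1 and WT2 and at 49.2, 16.2 and 19.5 CPM in Het1, Het2 and Het3 (log2 fold change 1.55, SE 0.24, adjusted p = 0.00228). Both of these were called in 13 of the 14 alternatives. *Eip74EF*, an early ecdysone response gene, rose by 1.7, the insulin-like peptide *ILP-2* by 1.67, and *rk*, the receptor of the tanning hormone bursicon, by 1.38 (adjusted p = 0.0187, 0.0112 and 0.0125). *Jhbp2*, a juvenile hormone binding protein, *Hr39* and *Hr38* completed the 9. The ecdysone receptor *Ecr* and its partner *usp* were at 0.49 and 0.48 (adjusted p = 0.0799 and 0.147), and *Kr-h1*, the main juvenile hormone response gene, at -0.82 (adjusted p = 0.603). Without WT1, 2 genes of the list were called, and the median was 0.58. Leaving out WT1 ended the call of *Cyp18a1* (3.28), *Eip74EF* (1.54), *ILP-2* (0.97), *rk* (1.03), *Jhbp2* (1.68), *Hr39* (0.59) and *Hr38* (1.14). The test also lost *Cyp18a1* without WT2 (2.54), *Jhbp2* without WT2 (1.97), Het1 (1.59), Het2 (1.85) and Het3 (1.99), *Hr39* without Het2 (0.71) and Het3 (0.89) and *Hr38* without WT2 (0.85), Het1 (0.94) and Het3 (0.86).

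Muscle genes varied widely between the heterozygote libraries. Of 22 tested sarcomere genes 5 rose (22.7%, against 9.71% of all genes), with a median of 0.97. Their summed level was 5479 and 10809 CPM in WT and from 5227 to 24049.6 CPM in heterozygotes, so the groups overlapped. *Mhc*, the myosin heavy chain, stood at 280.5 and 1052 CPM in WT1 and WT2 and at 4816, 603 and 3467 CPM in Het1, Het2 and Het3 (log2 fold change 2.48, SE 0.69, adjusted p = 0.0308), with Het2 below WT2. *Mlc2*, a myosin light chain, stood at 219 and 228 CPM in WT1 and WT2 and at 1477, 306 and 1492 CPM in Het1, Het2 and Het3 (log2 fold change 2.31, SE 0.54, adjusted p = 0.0158). *Mlc1*, *Actn* and *Tm1* rose by 2.05, 1.65 and 1.5, and *sls* and *bent*, the titin-like proteins, were at -0.49 and 0.04 (adjusted p = 0.521 and 0.9703). Het2 held the lowest value of the 5 libraries for *sls* and *bent*. The median of the list was 1.23 without WT1. The part of muscle content in these differences was not tested. Sarcomere genes had a median span of 41.9 kb, and 18.3% of the group of longest genes were called higher. The call was lost without WT1 for *Mhc* (2.01), *Mlc2* (2.56), *Mlc1* (2.6), *Actn* (1.31) and *Tm1* (1.33). There was also no call for *Mhc* without Het1 (2.45) and Het3 (1.78), *Mlc2* without Het1 (2.13) and Het3 (1.73), *Mlc1* without WT2 (1.65), Het1 (1.77) and Het3 (1.42) and *Actn* without Het1 (1.6) and Het3 (1.26).

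The genes that were lower included those of abundant secreted proteins of the sensillum lymph. Odorant binding proteins (OBPs) carry odorants through the lymph to the receptor neurons. Of 8 tested soluble carriers 3 fell (37.5%, against 8.14% of all genes) and 0 rose. *Obp1*, the most abundant of them, stood at 55560.0 and 11728 CPM in WT1 and WT2 and at 6131, 10929.5 and 8919 CPM in Het1, Het2 and Het3 (log2 fold change -1.89, SE 0.41, adjusted p = 0.0107). All heterozygotes lay below WT, but WT1 was several times higher than WT2, and the difference was -0.94 in batch 1 and -2.49 in batch 2. *Obp5* stood at 9128 and 3218 CPM in WT1 and WT2 and at 1138, 1625 and 2010.4 CPM in Het1, Het2 and Het3 (log2 fold change -1.98, SE 0.28, adjusted p = 0.00129) and *Obp6* at 4025 and 1619.8 CPM in WT1 and WT2 and at 709, 912 and 1279 CPM in Het1, Het2 and Het3 (log2 fold change -1.58, SE 0.24, adjusted p = 0.00197), and both remained called when any 1 of the 5 libraries was left out. Next to *Obp6* in the RefSeq gene order lies LOC105189919, which had no gene name and was chosen for its position after its values were seen. It stood at 2458 and 1012 CPM in WT1 and WT2 and at 5.604, 6.57 and 18.3 CPM in Het1, Het2 and Het3 (log2 fold change -7.6, SE 1.08, adjusted p = 0.00137), a steeper decrease than that of its neighbour. The other members, *Obp11*, *Obp59a* and *Obp10*, were at -0.77, -0.6 and -0.37, and the chemosensory proteins *CSP2* and *CSP6* at 2.33 and 2.86, none of them called. Without WT1, 2 carriers were called lower and the median of the list moved from -0.68 to -0.13. With WT1 left out, no call was made for *Obp1* (-0.82).

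The largest decreases without a gene name came next. LOC105182112 stood at 18597 and 2549 CPM in WT1 and WT2 and at 3.42, 60.7 and 71.6 CPM in Het1, Het2 and Het3 (log2 fold change -8.76, SE 1.19, adjusted p = 0.00105), so that every heterozygote library lay far below both WT libraries. In the homozygotes it ran from 2.61 to 141 CPM. It was called in every alternative. LOC105185090 stood at 5.86 and 8.26 CPM in WT1 and WT2 and had 0 counts in all 3 heterozygote libraries, and against a floor of 3 counts per library it was at least 21.9-fold lower (adjusted p = 0.001402). In the homozygotes it did not exceed 0.218 CPM. A pair of neighbouring genes, LOC105186439 and LOC105186440, fell together and were called in every alternative. They were chosen after their values were seen. The first stood at 373 and 129.7 CPM in WT1 and WT2 and at 3.58, 1.31 and 0 CPM in Het1, Het2 and Het3 (log2 fold change -7.46, SE 1.21, adjusted p = 0.00265), and the second had a log2 fold change of -7.35. The call held but the value moved by over 1.5 times without WT1 for LOC105182112 (-9.5), LOC105186439 (-6.36) and LOC105186440 (-6.61).

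The largest named decreases included *hgo*, *Hpd*, *P5CS*, *Cyp304a1* and *Spag1*. *Hgo*, homogentisate dioxygenase, stood at 302 and 219 CPM in WT1 and WT2 and at 1.56, 28.5 and 0.635 CPM in Het1, Het2 and Het3 (log2 fold change -5.16, SE 1.23, adjusted p = 0.0168). *Hpd*, which makes homogentisate in the preceding step of tyrosine degradation, stood at 83.7 and 80.8 CPM in WT1 and WT2 and at 3.42, 14.2 and 16.4 CPM in Het1, Het2 and Het3 (log2 fold change -3.6, SE 0.64, adjusted p = 0.00409), and was called in every alternative. *Faa*, the enzyme of the last step of the same route, was looked up after these values were seen, and stood at 109 and 56.7 CPM in WT1 and WT2 and at 17.9, 25.1 and 43.6 CPM in Het1, Het2 and Het3 (log2 fold change -1.68, SE 0.22, adjusted p = 8.06e-04). The heterozygotes lay below both WT libraries for all 3 enzymes. *P5CS*, which makes a precursor of proline, stood at 123 and 103 CPM in WT1 and WT2 and at 6.69, 23.7 and 5.48 CPM in Het1, Het2 and Het3 (log2 fold change -3.27, SE 0.67, adjusted p = 0.00827). *Cyp304a1*, a cytochrome P450, stood at 321 and 303 CPM in WT1 and WT2 and at 34.1, 50.02 and 27.6 CPM in Het1, Het2 and Het3 (log2 fold change -3.15, SE 0.33, adjusted p = 2.30e-04), and *Spag1*, a co-chaperone of dynein assembly, at 26.7 and 34.3 CPM in WT1 and WT2 and at 1.87, 1.23 and 2.86 CPM in Het1, Het2 and Het3 (log2 fold change -3.88, SE 0.32, adjusted p = 5.31e-05). All heterozygotes lay below WT for both genes, and both were called in all 14 alternatives. *CCAP-R*, a neuropeptide receptor, stood at 5.08 and 39.3 CPM in WT1 and WT2 and at 2.18, 1.31 and 2.06 CPM in Het1, Het2 and Het3, with WT2 far above the other 4 libraries (log2 fold change -3.12, SE 0.94, adjusted p = 0.0407). *Lipt1*, a lipoyl transferase, fell by 2.47 on the log2 scale, and *Osi2*, of the insect Osiris family, by 2.98. When WT1 was left out, the call was lost for *hgo* (-6.08), *P5CS* (-3.22), *Lipt1* (-0.94) and *Osi2* (-1.69). Still called without WT1, but with a fold over 1.5 times different, were *Hpd* (-4.96) and *CCAP-R* (-4.57). There was also no call for *hgo* without Het1 (-4.47) and *CCAP-R* without WT2 (-1.4), Het1 (-2.79), Het2 (-3.03) and Het3 (-3.35).

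Genes for cytosolic ribosomal proteins were lower in the heterozygotes. Of 57 tested, 50 (87.7%, against 8.14% of all genes) fell and 0 rose, the median log2 fold change was -0.97, and all 57 had a negative value. *RpL31* stood at 454 and 207 CPM in WT1 and WT2 and at 96.04, 69.3 and 109 CPM in Het1, Het2 and Het3 (log2 fold change -1.85, SE 0.26, adjusted p = 0.00132), and *RpL37-1* at 490.3 and 191 CPM in WT1 and WT2 and at 92.3, 130.0 and 109 CPM in Het1, Het2 and Het3 (log2 fold change -1.63, SE 0.24, adjusted p = 0.00144). *RpL26* and *RpL39* fell by 1.71 and 1.52 on the log2 scale. The genes together took 2.15% of gene-assigned counts in WT1, 1.07% in WT2, and 0.5904%, 1.03% and 0.897% in Het1, Het2 and Het3. WT1 had the highest share. The median difference was -0.56 within batch 1 and -1.32 within batch 2. Without WT1 9 genes were called and the median was -0.45, and with the 5 libraries alone 3 were called. The ribosomal protein genes had a median span of 1.52 kb, against 4.63 kb over all tested genes with a span, and short genes as a whole were higher in WT1 than in WT2. In the group of shortest genes 14.2% were called lower. The part of gene span in the result for ribosomal protein genes was not tested. Mitochondrial ribosomal proteins were lower in 8 of 66 genes (12.1%, against 8.14% of all genes, median -0.39), and without WT1 that median turned to 0.1. Leaving out WT1 ended the call of *RpL26* (-1.25) and *RpL39* (-0.29). The call held but the value moved by over 1.5 times without WT1 for *RpL31* (-1.17) and *RpL37-1* (-0.93). Calls were also lost for *RpL39* without Het2 (-1.27).

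**Figure D5:**
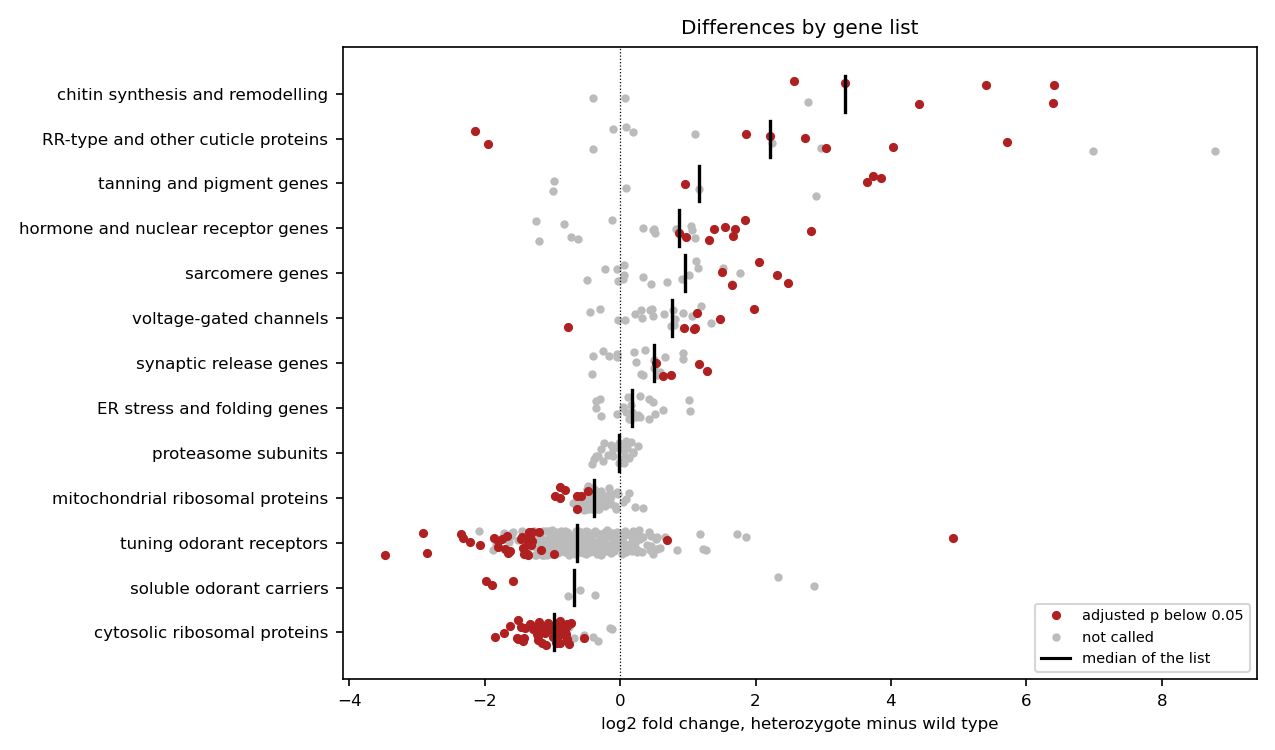
Log2 fold change of heterozygotes against WT (horizontal axis) for every tested member of 13 gene lists (vertical axis, points scattered within a row). Red points had an adjusted p below 0.05, grey points did not, and the black bar is the list's median. Chitin genes have the highest median, 3.32, and cytosolic ribosomal proteins the lowest, -0.97.

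Some synaptic and channel genes were higher in the heterozygotes. Of 23 tested synaptic release genes 5 rose (21.7%, against 9.71% of all genes) and 0 fell (median 0.49). Of 26 voltage-gated channel genes 6 rose (23.1%) and 1 fell (3.85%, against 8.14%), with a median of 0.77. With the 5 libraries alone, 0 genes of either list were called. *Rab3*, a vesicle GTPase, stood at 320.3 and 430.4 CPM in WT1 and WT2 and at 839, 933 and 566 CPM in Het1, Het2 and Het3 (log2 fold change 1.16, SE 0.28, adjusted p = 0.0172), and *Rop*, the fly Munc18 protein of vesicle fusion, at 129 and 141 CPM in WT1 and WT2 and at 254, 210.0 and 199 CPM in Het1, Het2 and Het3 (log2 fold change 0.75, SE 0.12, adjusted p = 0.00277). For both genes every heterozygote library lay above WT. *Brp*, the scaffold of the active zone, stood at 56.6 and 259 CPM in WT1 and WT2 and at 439, 246 and 154 CPM in Het1, Het2 and Het3 (log2 fold change 1.29, SE 0.29, adjusted p = 0.0139), with Het2 and Het3 below WT2. The potassium channel *shaker* stood at 18.4 and 72.8 CPM in WT1 and WT2 and at 180.1, 132 and 81.96 CPM in Het1, Het2 and Het3 (log2 fold change 1.97, SE 0.3, adjusted p = 0.00187), and *eag*, a further potassium channel, at 39.9 and 129.7 CPM in WT1 and WT2 and at 305, 163 and 106 CPM in Het1, Het2 and Het3 (log2 fold change 1.47, SE 0.35, adjusted p = 0.0158). *Shab*, also a potassium channel, fell by 0.77 on the log2 scale (adjusted p = 0.0264). WT1 was the lowest of the 5 libraries for *brp*, *shaker* and *eag*. The channel genes had a median span of 45.6 kb and the synaptic genes 23.4 kb, against 4.63 kb over all tested genes with a span. In the group of longest genes 18.3% were called higher and 3.25% lower, and the part of gene span was not tested. The medians of the channel list were 0.34 within batch 1 and 0.94 within batch 2. Without WT1, 1 synaptic gene and 1 channel gene were called, with medians of 0.48 and 0.31. The call was lost without WT1 for *Rab3* (1.23), *brp* (0.76), *eag* (1.11) and *Shab* (-0.49). The test also lost *eag* without Het1 (1.46) and *Shab* without Het1 (-0.58) and Het2 (-0.77).

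LOC105190162 and LOC105189505 were higher in every heterozygote library than in any library of the other genotypes. Both genes were chosen after their values were seen, among those called in all 14 alternatives. How many genes had this pattern was not counted. LOC105190162 stood at 157 and 355 CPM in WT1 and WT2 and at 1179, 768 and 654 CPM in Het1, Het2 and Het3 (log2 fold change 1.97, SE 0.23, adjusted p = 4.28e-04), and the homozygotes ran from 43.5 to 92.9 CPM. LOC105189505 stood at 7.55 and 8.47 CPM in WT1 and WT2 and at 61.6, 86.4 and 54.4 CPM in Het1, Het2 and Het3 (log2 fold change 3.13, SE 0.39, adjusted p = 6.24e-04), and the homozygotes ran from 3.34 to 8.71 CPM. The homozygote values are given as a description, and the heterozygotes were not tested against them here.

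Tuning odorant receptor genes are expressed by ORNs, usually a single receptor per neuron, and their proteins need Orco to reach the dendrite. Of 376 such genes in the annotation 346 were tested. The heterozygotes were lower for 33 of them (9.54%, against 8.14% of all genes) and higher for 2 (0.578%, against 9.71%). The share called lower was thus close to that of all genes, while the median log2 fold change was -0.64 and 292 of the 346 values were negative. The size of the shift differed between the batches. Within batch 1, where Het1 was compared with WT2, the median was -0.06 and 178 of 346 genes were negative, and within batch 2, where WT1 was the reference, the median was -0.99 and 311 were negative. Without WT1 the median of the tuning Or genes was -0.08. The receptor genes had no span in the gene table used, so the part of gene span could not be examined for them. In DESeq2, 53 were lower and 3 higher, where 11.8% of all genes were called lower and 13.3% higher. Homozygotes enter the spread that the test used, and for these genes their median log2 fold change against heterozygotes was -3.22.

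The summed share of the family gave a single value per library. Tuning Or genes took 0.4503% of gene-assigned counts in WT1 (Wilson 95% interval 0.447% to 0.454%), 0.324% in WT2, and 0.265%, 0.228% and 0.218% in Het1, Het2 and Het3. The groups did not overlap. The mean log2 share differed by -0.69, and a two-sided exact permutation test, in which the p of the smaller tail is doubled, gave p = 0.2 over 10 arrangements, the lowest value that this form of the test can give with 3 against 2 libraries. The difference was -0.29 within batch 1 and -1.01 within batch 2. The intervals cover counting error only.

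Single receptors departed from the family. *HsOr207* stood at 0.494 and 0.435 CPM in WT1 and WT2 and at 16.8, 13.1 and 14.5 CPM in Het1, Het2 and Het3 (log2 fold change 4.92, SE 0.84, adjusted p = 0.00322), and the homozygotes ran from 0 to 0.296 CPM, so that it was above 1 CPM in heterozygote libraries only. Its WT counts were 7 in WT1 and 2 in WT2. It was called in 12 of the 14 alternatives. Its mean count lay under the minimum of 50. Its near neighbour in number, *HsOr206*, stood at 30.7 and 21.5 CPM in WT1 and WT2 and at 21.6, 21.1 and 15.1 CPM in Het1, Het2 and Het3 (adjusted p = 0.572). *HsOr370*, the other receptor that rose, stood at 19.1 and 18.3 CPM in WT1 and WT2 and at 27.4, 33.3 and 34.1 CPM in Het1, Het2 and Het3 (log2 fold change 0.69, SE 0.19, adjusted p = 0.0315). The steepest decrease was that of *HsOr222*, at 19.8 and 18.03 CPM in WT1 and WT2 and at 2.65, 0.613 and 1.91 CPM in Het1, Het2 and Het3 (log2 fold change -3.48, SE 0.56, adjusted p = 0.00246). *HsOr3* and *HsOr85* fell by 2.91 and 2.85 on the log2 scale, from WT values of 10.6 and 3.48 CPM and of 8.54 and 2.17 CPM. Among decreased receptors at higher levels, *HsOr205* stood at 86.4 and 39.8 CPM in WT1 and WT2 and at 13.7, 14.5 and 9.29 CPM in Het1, Het2 and Het3 (log2 fold change -2.34, SE 0.38, adjusted p = 0.00257). It was named after its values were seen. Reads shared by near-identical receptor copies are left out by the counting, which makes the level of a recent duplicate uncertain. With WT1 left out, no call was made for HsOr207 (3 or fewer counts left in a group, no fold), HsOr370 (0.43), HsOr222 (-2.89), HsOr3 (-1.09), HsOr85 (-1.66) and HsOr205 (-1.56). There was also no call for HsOr370 without Het1 (0.62) and Het3 (0.7) and HsOr3 without Het2 (-2.84) and Het3 (-2.39).

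The other receptor families held 4 calls, and each was an increase. They were 2 of 4 co-receptors, 1 of 15 tuning ionotropic receptors (6.67%) and 1 of 11 gustatory receptors (9.09%). Of all genes 9.71% were called higher. The ionotropic co-receptors *HsIr25a.1* and *HsIr25a.2*, which pair with tuning ionotropic receptors (IRs) in the way that Orco pairs with ORs, rose. *HsIr25a.1* stood at 1.83 and 2.61 CPM in WT1 and WT2 and at 10.1, 6.75 and 6.27 CPM in Het1, Het2 and Het3 and *HsIr25a.2* at 10.8 and 15.4 CPM in WT1 and WT2 and at 37.05, 23.9 and 18.9 CPM in Het1, Het2 and Het3 (adjusted p = 0.004296 and 0.01397), and in both every heterozygote library lay above WT. Of the remaining co-receptors, *HsIr8a* stood at 73.4 and 97.8 CPM in WT1 and WT2 and at 63.4, 45.7 and 54.3 CPM in Het1, Het2 and Het3 (log2 fold change -0.61, SE 0.26, adjusted p = 0.128) and *HsIr76b* was at 0.35 (adjusted p = 0.271). Among 15 tested tuning IRs only *HsIr310* was called, at 1.199 and 1.09 CPM in WT1 and WT2 and at 3.27, 3.77 and 4.05 CPM in Het1, Het2 and Het3 (log2 fold change 1.67, SE 0.36, adjusted p = 0.0106). Among 11 tested gustatory receptors only *HsGr1* was called, at 2.33 and 4.13 CPM in WT1 and WT2 and at 63.2, 13.9 and 20.01 CPM in Het1, Het2 and Het3, where Het1 was several times higher than the other heterozygotes. The medians of the co-receptors, tuning IRs and gustatory receptors were 0.73, 0.45 and 0.53, and without WT1 0.8, 0.36 and 0.25. Without WT1 the test no longer called HsIr25a.1 (1.96), HsIr25a.2 (1.22), HsIr310 (1.75) and HsGr1 (3.77). Calls were also lost for HsGr1 without WT2 (2.96) and Het1 (3.06).

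Genes of stress, cell death and energy metabolism were counted in the same way. No gene of 25 endoplasmic reticulum (ER) stress and folding genes was called (median 0.18), and none of 30 proteasome subunits was (median -0.01). At an unadjusted p below 0.05 the numbers were 5 and 1, where 3592 of all 10740 genes passed, and DESeq2 called 1 and 0 genes. Without WT2, 5 ER genes were higher and 1 lower, and 4 proteasome genes were lower, where 21.2% of all genes were called higher and 15.2% lower. There were 1 higher and 2 lower of 16 cell death genes (6.25% and 12.5%, against 9.71% and 8.14% of all genes): *wgn*, a tumor necrosis factor receptor, rose by 1.22, *p53* fell by 0.93 and the mitochondrial protease *HtrA2* fell by 0.73 on the log2 scale. Of 19 cell division genes 1 rose (5.26%, against 9.71% of all genes), *CycE*, which drives entry into DNA replication (0.76, adjusted p = 0.0317). Nuclear genes of oxidative phosphorylation counted 4 higher (7.84%, against 9.71% of all genes) and 0 lower of 51 genes. The 4 were led by *ATPsynbeta* (0.82, adjusted p = 0.0267), and the median of the 51 was -0.13 with WT1 and 0.47 without it. Cytosolic chaperones counted 2 higher and 0 lower of 15 genes (13.3%, against 9.71% of all genes). Immediate early genes, which respond quickly to neuronal activity, counted 2 higher and 0 lower of 12 genes (16.7%). The medians of the chaperones and immediate early genes were 0.06 and 0.31 with WT1, and 0.23 and 0.02 without it. With the 5 libraries alone, 0 genes of either list were called, where 2.33% of all genes were called higher. When WT1 was left out, the call was lost for *wgn* (0.75), *p53* (-1.02), *HtrA2* (-0.42), *CycE* (0.78) and *ATPsynbeta* (1.06). The test also lost *p53* without Het2 (-0.88) and Het3 (-0.87), *CycE* without WT2 (0.74), Het2 (0.56) and Het3 (0.81) and *ATPsynbeta* without WT2 (0.64), Het1 (0.69) and Het3 (0.72).

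Signalling and clock genes gave single examples in both directions. Among 21 immune genes 3 rose (14.3%, against 9.71% of all genes), the Toll receptors *Tollo* and *Toll-6* and *PPO*, which also belongs to the tanning list. *Tollo* stood at 2.26 and 8.47 CPM in WT1 and WT2 and at 31.3, 35.04 and 27.3 CPM in Het1, Het2 and Het3 (log2 fold change 2.95, SE 0.47, adjusted p = 0.00249), and it was called in 13 of the 14 alternatives. Of 11 tested neuropeptide genes 2 rose (18.2%, against 9.71% of all genes) and 1 fell (9.09%, against 8.14%). *Dsk* (drosulfakinin) rose by 2.58 from 8 WT counts, *amon*, a peptide-processing enzyme, rose by 1.0, and *NPF* (neuropeptide F) fell by 1.73 on the log2 scale. Of 8 clock genes 1 rose and 1 fell (12.5% each, against 9.71% and 8.14% of all genes). The clock gene *cyc* stood at 29 and 85.4 CPM in WT1 and WT2 and at 18.7, 17 and 16.5 CPM in Het1, Het2 and Het3 (log2 fold change -1.42, SE 0.35, adjusted p = 0.0189), and *Pdfr*, the receptor of the clock peptide Pdf, rose by 2.4 (adjusted p = 0.0475). Of 13 phototransduction genes 2 fell (15.4%, against 8.14% of all genes). They were *ninaB*, which makes retinal, at 23.3 and 10.9 CPM in WT1 and WT2 and at 5.76, 5.52 and 7.07 CPM in Het1, Het2 and Het3 (log2 fold change -1.5, SE 0.34, adjusted p = 0.0137), and *Uvop*, an ultraviolet opsin, at 28.9 and 29.1 CPM in WT1 and WT2 and at 16.97, 14.5 and 16.4 CPM in Het1, Het2 and Het3 (log2 fold change -0.81, SE 0.2, adjusted p = 0.0188). *Arr1* and *Arr2* were at most 4.67 CPM in all 5 libraries. The tested genes of the list summed to 470 CPM in WT1, 1129 CPM in WT2 and between 768 and 1058 CPM in heterozygotes. Of 13 tested transcription factors of neuron identity 2 rose (15.4%, against 9.71% of all genes). They were *dac*, which rose by 3.09 from 5 WT counts, and *Lim3*, by 1.47, with Het2 below WT2. *Acj6*, a factor of ORN identity in the fly, stood at 3.67 and 60.6 CPM in WT1 and WT2 and at 78.6, 46.1 and 36.7 CPM in Het1, Het2 and Het3 without being called (log2 fold change 1.56, SE 0.73, adjusted p = 0.159). Leaving out WT1 ended the call of *Tollo* (2.24), *Toll-6* (0.83), *PPO* (0.89), *Dsk* (3 or fewer counts left in a group, no fold), *amon* (1.04), *NPF* (-1.0), *Pdfr* (1.9), *ninaB* (-0.69), *Uvop* (-0.53), *dac* (1.95) and *Lim3* (0.68). There was also no call for *PPO* without Het1 (0.89), *Dsk* without WT2 (1.96), Het1 (2.72), Het2 (2.55) and Het3 (2.5), *NPF* without Het3 (-1.71) and *cyc* without WT2 (-0.88) and Het1 (-1.1). Calls were also lost for *Pdfr* without WT2 (2.81) and Het3 (1.48), *Uvop* without Het1 (-0.7) and *Lim3* without Het3 (1.24).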

How the data were processed

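Antennae were ground in liquid nitrogen, RNA was extracted with TRIzol and treated with DNase, and polyA libraries were made with the NEBNext Ultra II kit. The authors aligned reads with STAR 2.6.1d and deposited raw counts of uniquely mapped reads per gene. The unstranded column was used, so a gene and an overlapping or antisense partner cannot be told apart, and reads shared by near-identical copies are missing. Rows that name no gene were left out, and 70.3% to 75.2% of the counts of the 5 libraries compared were in genes. A deposited table of the whole series, made with DESeq2 1.34.0 per the labels, was not used.

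Counts were tested with edgeR 4.0.16 (R 4.3.3), with TMM scaling and the quasi-likelihood F test, over all 12 libraries with genotype and sequencing batch as terms. Genes with a mean count of at least 10 entered. P-values were adjusted by Benjamini-Hochberg over all 10740 genes, with a threshold of 0.05, and approximate standard errors were derived from the fold change and the F statistic. Levels are TMM-scaled CPM. Within-batch differences use log2 of CPM plus 0.5. On simulated data, 78.9% of 199 genes changed by 2 on the log2 scale were recovered among 10705 genes tested, and 5.42% of calls were false. The simulated libraries shared the same mean per gene apart from those changes and a batch shift. None departed from its group along gene span as WT1 did, so the false rate does not describe the calls reported here.

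Named genes were the study's marker genes, the 15 largest called changes in each direction with a gene symbol, groups that did not overlap, the same sign in both batches and at least 5 CPM in the higher group, up to 4 called members per list, and the 2 largest changes without a symbol. The rule asked for product names, and symbols were used in their place. Other genes are named as list members or as chosen after their values were seen. The members and lists were chosen with earlier results of these data known. Alternatives were DESeq2 1.42.0, other scalings, filters and designs, and leaving out each library.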

Additional observations from a re-analysis of the deposited data

How the results depend on the processing

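The number of genes called, 1917 in all with 1043 higher and 874 lower, moved by more than 1.5 times under several alternatives. With the 5 WT and heterozygote libraries alone it was 382 (250 higher, 132 lower), without the batch term 721 (423 and 298), and with batch 2 alone 3576 (2115 and 1461). Scaling by library totals left 672 genes higher. Leaving out 1 library gave between 457 (WT1 left out) and 3903 (WT2 left out) genes, of which 264 to 2273 were higher and 193 to 1630 lower, and a fit with an arm of 1 library assumes that it varies like the other groups. Tuning Or genes called numbered 35 as reported, 9 with the 5 libraries alone, 56 with DESeq2, 17 with a mean count of at least 50, 9 with no batch term, 66 in batch 2 by itself, and from 0 to 71 when 1 library was left out. The difference in tuning Or share, -0.69, was -0.29 within batch 1, -1.01 within batch 2, and between -0.93 and -0.46 when 1 library was left out.

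With the replicate number as a block and the batch term kept, 866 genes were called (607 higher, 259 lower), 4 of them tuning Or genes. Same-numbered WT and heterozygote libraries lay in different sequencing batches, and their deviations correlated at -0.581 and -0.436. The deviations of WT1 and WT2 from their mean mirror each other, so WT2 and Het1, which share a batch, gave 0.581. The correlations therefore cannot separate pairing from batch or from the departure of WT1. Whether same-numbered libraries were paired is not known.

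Among the marker genes that were not called, 3 changed sign. LOC105190174 (*fne*) was at -0.10 without WT2 and -0.088 without Het2, and between -0.10 and 0.49 when any 1 library was left out. *Repo* was at 0.011 when batch was dropped, 0.050 in batch 2 by itself, 0.078 without WT2 and 0.079 without Het2, and as low as -0.11 without WT1. *Grh* was at 0.19 with the 5 libraries alone, 2.10 with batch 2 alone, 0.14 with the replicate block, 2.09 without WT2 and 0.53 without Het1, and as low as -1.86 without WT1. The cause was not tested. Over the named genes and alternatives, 1234 values kept their direction and their side of the threshold and 367 kept only their direction. Genes with a few WT counts, such as *Cad74A* and *Skeletor*, are limited by depth.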
